A study of Mus musculus with 96 samples.

Results

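The genes described here encode the proteins of the cytosolic ribosome. A gene was a member when its single annotated symbol began with Rpl or Rps, or was Rack1 or Fau, when kinases of the Rps6k family and pseudogene names were left out, and when its signal exceeded 20 on at least 1 array. This gave 69 members among 7741 named genes tested, 44 of the large and 25 of the small subunit, and 5 of them are paralogues of another ribosomal protein gene (Rpl22l1, Rpl39l, Rps27l, Rpl36al and Rpl7l1). All 69 genes that met the name rule also passed the filter on low signal. Rack1, Rps3, Rpl5 and Rps27a were not analysed here.

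The cells were primary bone marrow dendritic cells of the mouse, given 1 of 5 ligands of Toll-like receptors and sampled at 9 times from 0.5 to 24 h. The labels call the ligands Lps, Pic, Pam, Cpg and Grd. From knowledge of the study, not from the labels, these are taken as lipopolysaccharide, poly(I:C), a synthetic lipopeptide, CpG oligonucleotides and gardiquimod. There were 18 arrays each of Lps, Pic, Pam and Grd, with 2 per time, 16 of Cpg, with 1 array at 16 h and 1 at 24 h, and 8 of Control, the cells without ligand, with 1 array each at 0, 1, 2, 4, 6, 8, 12 and 24 h. The labels give no strain, age, dose or genotype, and nothing that says whether the arrays of a time came from separate cultures, so a p-value here speaks only of how far these arrays scatter, and that scatter may be technical.

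A ribosome joins a small subunit, which reads the message, to a large subunit, which forms the peptide bond, and each holds many small basic proteins around ribosomal RNA. Their messages are among the most abundant in a cell, and most begin with a cytosine followed by a run of pyrimidines, the terminal oligopyrimidine start through which the mTORC1 kinase is known to set their translation. An array reads the amount of message and not its translation. In a bulk sample, fewer cells of a type and less message per cell cannot be told apart.

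The starts of some members are shown because this element is what the family is best known to share. Each window runs from 30 bases before to 20 bases from the start annotated by RefSeq on build GRCm38.p6, 5′ to 3′ on the gene's strand, and capitals mark its longest run of pyrimidines. Rps18, Rps6, Rplp2 and Fau carry a long run at the start.
Rps18, chr17:33955646-33955695, minus strand: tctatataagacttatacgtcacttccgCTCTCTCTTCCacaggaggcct
Rps6, chr4:86857348-86857397, minus strand: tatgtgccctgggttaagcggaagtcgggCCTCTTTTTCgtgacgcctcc
Rplp2, chr7:141447621-141447670, plus strand: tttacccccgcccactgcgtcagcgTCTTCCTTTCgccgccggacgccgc
Fau, chr19:6057917-6057966, plus strand: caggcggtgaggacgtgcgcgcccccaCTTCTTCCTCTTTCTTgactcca
Rps16 and Rpsa are shown because they are the 2 small-subunit members with the lowest mean late difference, and Rps27l, Rpl7l1 and Rpl24 because each rose in most middle and late windows.
Rps16, chr7:28350659-28350708, plus strand: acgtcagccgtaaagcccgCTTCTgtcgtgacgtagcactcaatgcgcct
Rpsa, chr9:120127736-120127785, plus strand: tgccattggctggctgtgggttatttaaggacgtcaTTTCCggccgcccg
Rps27l, chr9:66946056-66946105, plus strand: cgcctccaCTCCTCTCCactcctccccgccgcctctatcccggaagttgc
Rpl7l1, chr17:46782637-46782686, minus strand: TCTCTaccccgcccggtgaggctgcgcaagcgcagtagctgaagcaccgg
Rpl24, chr16:55966245-55966294, plus strand: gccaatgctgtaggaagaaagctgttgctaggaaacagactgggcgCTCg

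Of the 69 members, 56 were matched to a RefSeq promoter entry, with 66 annotated starts. A cytosine with 4 pyrimidines after it stood exactly at 11 of the 66 starts (16.7%), against 2.51% of all 32851 starts. A run of at least 7 pyrimidines between 20 bases before and 30 bases after the start was present at 59.1% of the member starts and at 28.6% of all starts. In the 300.0 bases around the start, from 250 before to 50 after, the letters CCGGAAG, searched on both strands, lay at 39.4% of member starts and 8.86% of all starts. The letters GCCATNTT, searched in the same way, lay at 24.2% and 6.05%. An annotated start can lie some bases from the start used in these cells, and a match is a description of letters only.

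Most members were bright. The median of their mean intensities over the 96 arrays was 4510, against 138.1 for the 10543 items tested, which are named genes and unnamed probe sets. Of the 69 members 65 had a mean above 1000, and 20 lay among the 105 brightest items. The highest means belonged to Rps6 (8483), Rps29 (8112) and Rpl41 (7956), and the lowest to Rpl14 (28.43), Rpl39l (44.81) and Rpl7l1 (285.3). Intensities of different probe sets are not comparable as amounts of message. The probe sets of 17 members have the suffix x and those of 6 the suffix s, which mark probes that can also match other sequences, and ribosomal protein genes have many processed pseudogenes. Those of 34 members have the suffix a, which marks several transcripts of 1 gene, and 12 members were read by a plain probe set.

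Ribosomal protein messages fell after each of the 5 ligands, by modest amounts, over many hours. The mean log2 difference of the 69 members from the Control mean was 0.055 at 0.5 h of Lps (0.0526 and 0.0579 on the 2 arrays). It was -0.13 at 2 h, -0.18 at 4 h, -0.28 at 8 h and -0.38 at 12 h (-0.3857 and -0.3777), and then -0.31 at 16 h and -0.30 at 24 h. On these arrays the members were therefore lowest at 12 h of Lps.

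With Pic the same mean stood at 0.051 at 0.5 h, -0.058 at 4 h, -0.24 at 8 h and -0.30 at both 12 and 16 h. The Pic members at 4 h thus lay closer to Control than the Lps members at 2 h. With Pam the mean reached -0.12 at 4 h and stayed between -0.14 and -0.11 up to 24 h. Cpg and Grd had their lowest means at 12 h, -0.33 and -0.30, and higher ones at 16 h, -0.16 on the single Cpg array and -0.19 for Grd. The 8 Control arrays lay between -0.033 and 0.092, and 7 of them were at or below 0.00083. The highest was the array at 24 h.

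**Figure D1:**
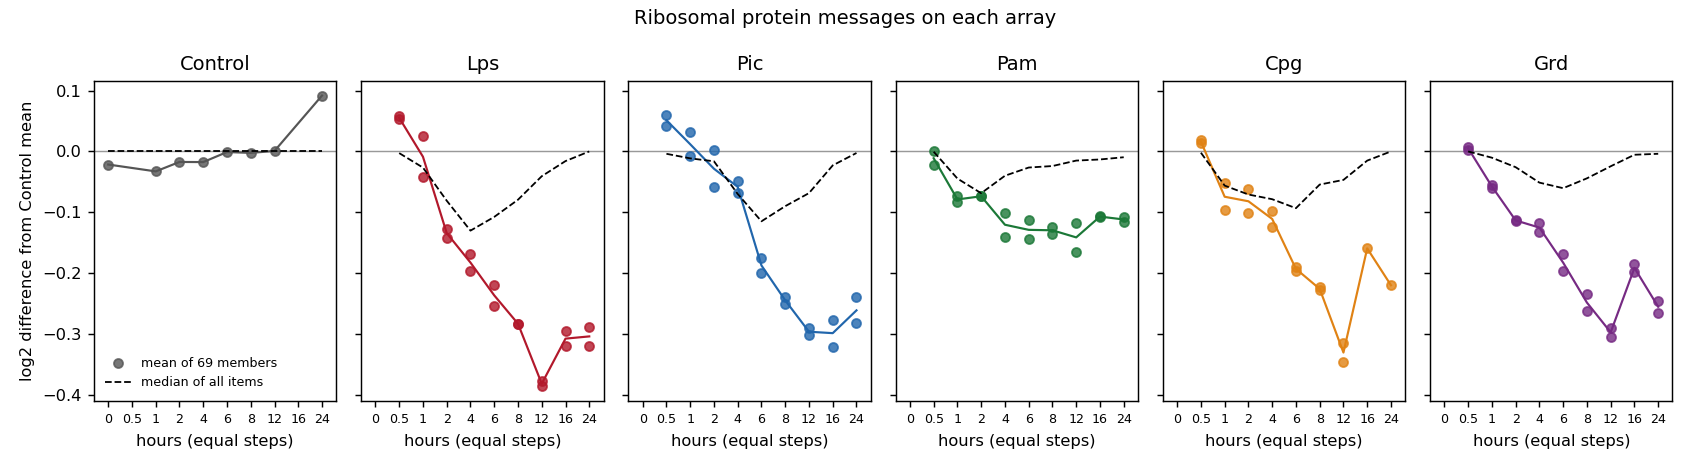
Mean log2 difference of the 69 members from the Control mean on each array (points), with the mean of each time (solid line) and the median of all items (dashed line), against hours after the ligand in equal steps, for Control and each ligand. The Lps points fall to about -0.38 at 12 h, the Pam points stay between -0.16 and 0.0003, and the Control array at 24 h lies at 0.092 above the other 7.

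In the late window (12, 16 and 24 h) calls of members used limma, with p-values adjusted by Benjamini-Hochberg over all 10543 items and a threshold of 0.05. With Lps 63 of 69 members were lower than Control and 3 higher, while 35.3% of all items were lower and 27.5% higher. The median member stood at 79.7% of its Control level, a log2 difference of -0.33, against a median of -0.02 over all items. With Pic 62 were lower and 0 higher (38.5% and 26.9% of all items) and the median member stood at 82.7% of Control. At an unadjusted p under 0.05 in limma the number of rises with Pic was also 0.

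With Grd 64 members were lower and 4 higher in the late window (32.4% and 25.5% of all items), and the median was 84.4% of Control. With Cpg 61 were lower and 4 higher (31.4% and 22.7%), with a median of 84.5%. With Pam 56 were lower and 4 higher (31.7% and 23.6%), and the median member kept 91.3% of its Control level. No member was called with a late log2 difference of at least 1 in size, as 9.12% of all items were with Lps, 8.54% with Pic, 6.39% with Pam, 7.09% with Cpg and 6.72% with Grd. All arrays of the ligand lay below all 8 Control arrays for 59 members with Lps (16.2% of all items), 55 with Pic (17.3%), 56 with Grd (12.9%), 53 with Cpg (15.2%) and 30 with Pam (12%).

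In the middle window (4, 6 and 8 h) most members were lower as well. Lower members numbered 65 with Lps (47.8% of all items), 61 with Pic (46.3%), 58 with Pam (37.7%), 61 with Cpg (44.8%) and 65 with Grd (40.7%). Higher ones numbered 3, 0, 4, 4 and 4 (limma, also 0 with Pic at an unadjusted p under 0.05), against 26.2%, 23.1%, 25.1%, 24.9% and 23.6% of all items. The median differences were -0.24, -0.15, -0.14, -0.19 and -0.19. Here the typical item had moved as well, by -0.11 with Lps and -0.10 with Pic, so the result depends on the scale. With each array centred on its median item, lower and higher members numbered 27 and 9 with Lps, 26 and 4 with Pic, 33 and 5 with Pam, 28 and 7 with Cpg and 43 and 4 with Grd, against 34.4%, 34.9%, 30.2%, 32.8% and 31.6% of all items lower and 46%, 38.4%, 38%, 43.5% and 39.7% higher on that scale.

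Under the same centring the late window kept 61 lower members with Lps, 61 with Pic, 51 with Pam, 60 with Cpg and 63 with Grd (32.6%, 32.1%, 30.2%, 28.1% and 31.1% of all items on that scale). When arrays were instead centred on 1237 bright items that are no members, late lower members numbered 65, 64, 61, 65 and 65 (50%, 48.2%, 40.2%, 42.6% and 48.5% of all items). The late counts thus hold under the 3 scalings tried.

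**Figure D2:**
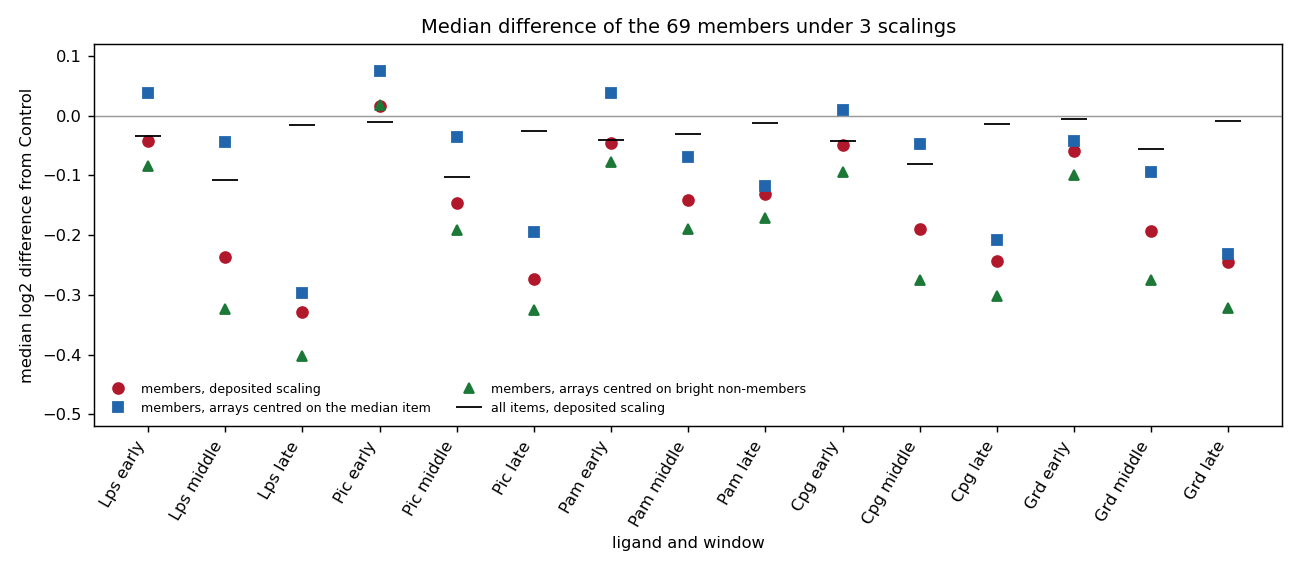
Median log2 difference of the 69 members from Control in each ligand window as deposited (circles), with arrays centred on the median item (squares) and centred on bright items that are no members (triangles), with the median of all items as deposited (dashes). In the early and middle windows the squares lie nearer 0 or above it, while in the late windows all 3 scalings lie below -0.1.

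In the early window (0.5, 1 and 2 h) the median member stayed near Control, with log2 differences between -0.06 and 0.02 over the 5 ligands. Lower and higher members numbered 23 and 7 with Lps (33.6% and 18.4% of all items), 11 and 16 with Pic (27.2% and 17.7%), 29 and 3 with Pam (35.4% and 18.5%), 24 and 1 with Cpg (32.2% and 14.5%) and 26 and 1 with Grd (22.5% and 15.1%). With Cpg and Grd nearly all calls were lower. Centring on the median item gave 3 lower and 23 higher with Lps (24.1% and 35.2% of all items on that scale), 2 and 34 with Pic (19.9% and 31.6%), 7 and 12 with Pam (24.9% and 35.4%), 6 and 8 with Cpg (23.4% and 25.8%) and 18 and 1 with Grd (19.9% and 17%). With Lps, Pam and Cpg the direction of most calls thus turned with the scaling. With Grd most calls were lower under each of the 3 scalings, with 45 lower members when centred on bright items (33% of all items). With Pic rises outnumbered falls under each, with 14 and 8 on that scale (17.9% and 26.5%).

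Markers of another cell type also changed after the ligands. The summed intensity of 11 measured markers of neutrophils and their precursors, out of 14 listed, lay between 7835 and 10320 on the Control arrays. Its late median was 2419 with Lps, 5694 with Pic, 4436 with Pam, 4350 with Cpg and 4304 with Grd. In the middle window the medians were 5893, 8636, 5746, 6938 and 6976 in that order. In the early window they were 10260, 11980, 9501, 9743 and 9231, against a Control median of 9323. Of its defining genes Elane, Mpo, Ctsg and Prtn3 had Control means between 20 and 31.3, at or near the floor of 20, while S100a9 (2987), Mmp8 (2543) and S100a8 (2243) carried most of the sum. Their part in the fall of ribosomal protein messages was not tested. The sum of 15 measured dendritic cell and macrophage markers, of 16 listed, was 45180 on the median Control array. In the late windows it was 43030, 42670, 45990, 44600 and 43830 in the same order. This sum hides changes of single markers. Late lower and higher ones of the 15 numbered 9 and 4 with Lps, 7 and 3 with Pic and 9 and 3 with Pam. With Cpg they numbered 8 and 4, and with Grd 9 and 3. The late shares of all items are those given above. Cd74 (7975) and Itgax (3363) were bright in Control, Zbtb46 (40.41) and Flt3 (28.76) were near the floor, and B cell, T and NK cell and erythroid markers were at or near it.

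The stalk of the large subunit, a set of acidic proteins that recruits elongation factors, was measured through all 3 of its genes. Rplp0, the base of the stalk, ranged from 7088.3 to 8121.8 on the Control arrays with a median of 7312, and from 5601.5 to 6174.7 with a median of 6001 on the 6 late Lps arrays, with no overlap. It fell by 0.32 ± 0.025 (SE, adjusted p = 3.72e-17). Rplp1 had a Control median of 7557 and a late Lps median of 5581, and fell by 0.43 ± 0.024. Rplp2, whose start is printed above, had a Control median of 6712 and a late Lps median of 4830, and fell by 0.52 ± 0.034. All 3 were lower in each of the 10 middle and late windows. When arrays were centred on their median, several of the middle falls were no longer called. These were Rplp0 with Cpg (0.0053) and Pic, Rplp1 with Lps, Cpg and Grd, and Rplp2 with Lps, Pam, Cpg and Grd.

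Rpl12, which lies at the foot of the stalk, fell furthest of the 69 members when the 5 late windows were averaged (-0.53). Its intensity was between 2777 and 3344.8 on the Control arrays, with a median of 3025. On the late arrays the lowest, median and highest values were 1738.9, 1837 and 1893 with Lps and 1793.6, 1928 and 2255 with Pic. Neither set overlapped Control. The falls were 0.73 ± 0.036 with Lps (adjusted p = 1.06e-24) and 0.62 ± 0.036 with Pic (adjusted p = 8.74e-22), and 0.29 ± 0.036 with Pam.

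Rpl36, another protein of the large subunit, had a Control range of 3063 to 3767.1 and a median of 3253. The late Lps arrays lay between 1864.2 and 2294.7, with a median of 2079, all below Control. It fell by 0.65 ± 0.042 (adjusted p = 6.89e-20), and its other probe set fell by 0.67 with Lps in the late window. Rpl36a fell by 0.61 ± 0.037 with Lps and 0.65 ± 0.037 with Pic in the late window, from a Control mean of 2093.

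Rpl3, a core protein near the centre that forms the peptide bond, separated the ligands. Its Control arrays were tight, from 4414.6 to 4696.3 with a median of 4535. The late Pic arrays ran from 2761.6 to 3088.5 with a median of 2810, the late Lps arrays from 3048.9 to 3541.1 with a median of 3374, and the late Pam arrays from 4207.8 to 4484.5 with a median of 4274. Only the Pam arrays overlapped Control among these 3 ligands. Rpl3 fell by 0.66 ± 0.021 with Pic, 0.45 ± 0.021 with Lps and 0.07 ± 0.021 with Pam. The difference between Pic and Pam was -0.59 ± 0.023 (limma, adjusted p = 2.27e-29).

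Rpl11, which travels with the 5S ribosomal RNA and can bind Mdm2 when free, had a Control median of 3497 and late medians of 2587 with Lps and 2648 with Pic. It fell by 0.45 ± 0.036 and 0.43 ± 0.036. Rpl13a, known for a role outside the ribosome in silencing inflammatory messages in myeloid cells, had a Control median of 4725 and a late Lps median of 3666. It fell by 0.40 ± 0.030 with Lps, 0.38 ± 0.030 with Grd and 0.24 ± 0.030 with Pam. Rpl22 fell by 0.30 ± 0.036 with Lps in the late window and differed from Control by -0.06 with Pam, which was not called.

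Of the small subunit, 22 of 24 members that are no paralogues were lower with Lps in the late window, with a median of -0.38, and 39 of 40 such large-subunit members, with a median of -0.33. The difference between the subunits was not tested. Across the 69 members, Spearman's correlation between the Control mean intensity and the difference from Control, which share the Control arrays, lay between 0.21 and 0.40 in the 10 middle and late windows, a description only.

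Rpsa, a surface protein of the small subunit also known as a laminin receptor, had the largest late fall of the members with Lps. Its Control arrays lay between 5757 and 6317.2 with a median of 6083. At 0.5 h the 2 Lps arrays read 7251.5 and 7685.1, above all Control arrays, and at 12 h they read 3763.9 and 3356.9, below all of them. In the late window it fell by 0.77 ± 0.037 with Lps (58.8% of Control, adjusted p = 3.44e-25), by 0.39 ± 0.037 with Pic and by 0.25 ± 0.037 with Pam. The late difference between Lps and Pam was -0.51 ± 0.039 (adjusted p = 2.42e-16).

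Rps16, which reaches toward the decoding site, ranged from 4806.3 to 5683.9 on the Control arrays with a median of 5050. The late arrays had medians of 3061 with Lps, 3265 with Cpg, 3547 with Grd, 3695 with Pic and 4007 with Pam. In each of these late windows all arrays lay below all Control arrays. Rps16 fell by 0.73 ± 0.026 with Lps (adjusted p = 1.76e-31), 0.57 ± 0.030 with Cpg and 0.32 ± 0.026 with Pam.

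Rps6, the small-subunit protein that S6 kinase phosphorylates downstream of mTORC1, had a Control median of 9549 and late medians of 7414 with Lps, 7194 with Pic and 8745 with Pam. It fell by 0.37 ± 0.025, 0.38 ± 0.025 and 0.13 ± 0.025. Its plain probe set, with a Control mean of 134.6, did not repeat the Pam values (0.10 in the middle and 0.09 in the late window, neither called). Fau, a fusion of a ubiquitin-like peptide with a small-subunit protein, fell by 0.38 ± 0.028 with Grd and 0.35 ± 0.028 with Lps in the late window, from a Control median of 4411.

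A few bright members moved little. Rps29 had a Control median of 8311 and late medians of 7911 with Lps, 7979 with Pic and 8185 with Pam, all of which overlapped Control. It was lower in 4 of the 10 middle and late windows, and the largest of its late differences was -0.06. Rpl41, the shortest ribosomal protein, was lower in 8 of the 10 windows with a mean late difference of -0.09. Rpl34 was 0.04 above Control with Pic and 0.02 above it with Pam in the late window, neither called, but fell by 0.20 ± 0.038 with Lps.

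**Figure D3:**
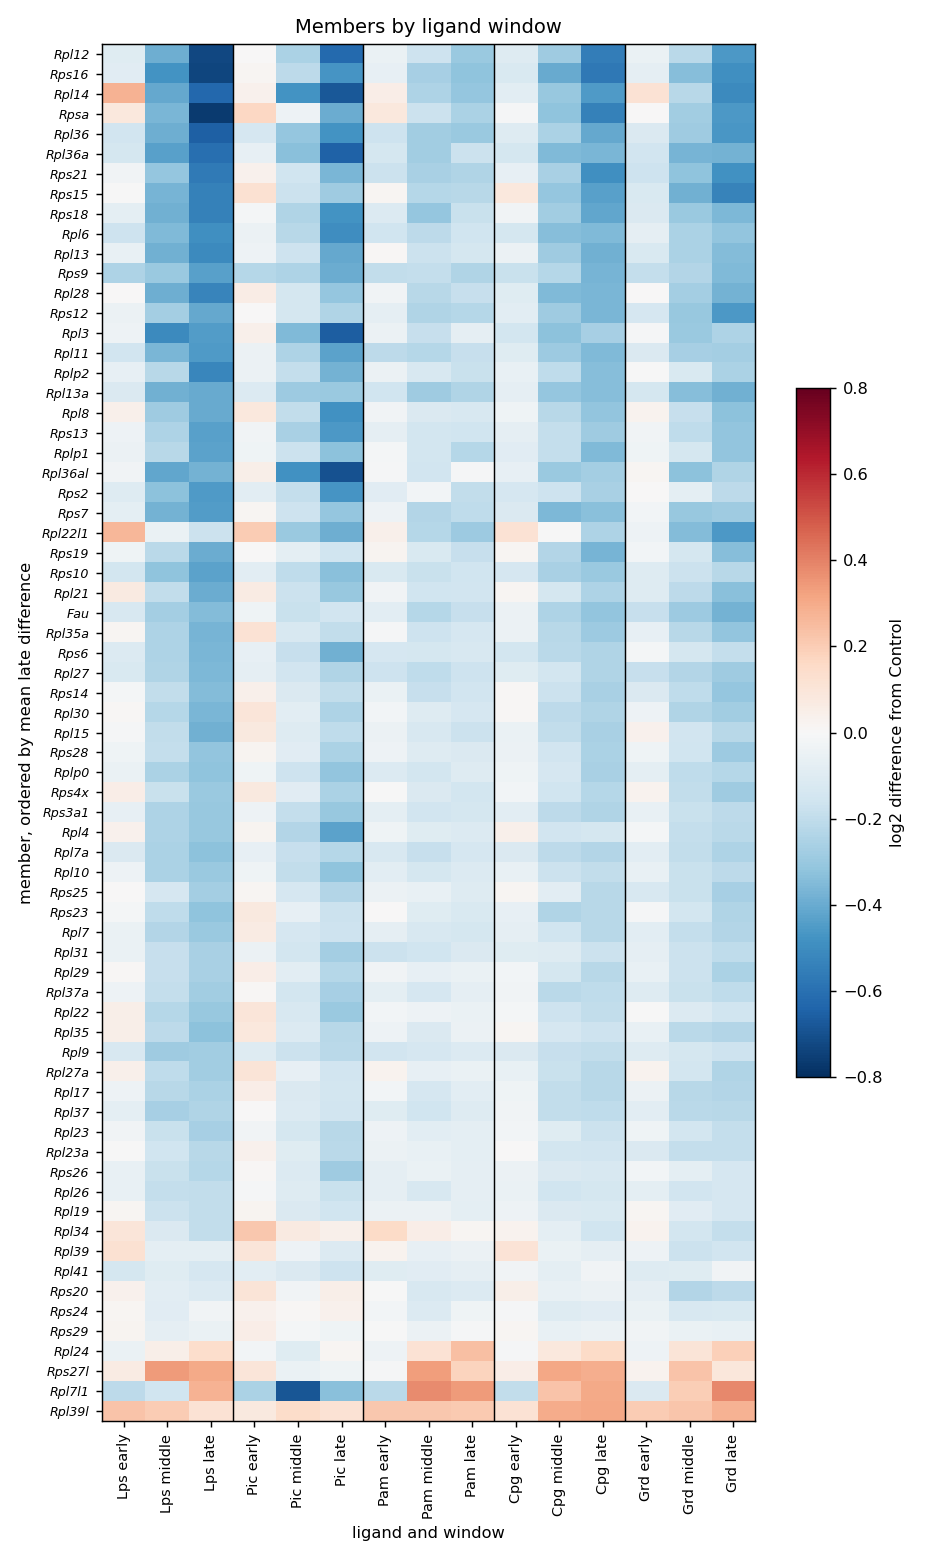
Log2 difference from Control of each of the 69 members (rows, ordered by the mean of the 5 late windows) in the 15 ligand windows (columns), blue for lower and red for higher. Rpl12 and Rps16 lead the lower end, Pam columns are paler than Lps columns, and Rpl24, Rps27l, Rpl7l1 and Rpl39l form the red rows at the bottom.

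The ligands differed from each other. In an F-test over the 5 ligands, with no Control array in the contrast, 67 of 69 members were called in the late window (70.6% of all items), 59 in the middle (76.5%) and 42 in the early window (49.3%). With arrays centred on their median the middle count was 39, against 82.9% of all items on that scale. Of the 10 late pairs, Lps against Pam had the largest number of members lower, 60 lower and 1 higher (24.3% and 18.4% of all items), with a median of -0.20. Pic was lower than Pam for 51 members and higher for 2 (34.6% and 27%). Pam was higher than Grd for 49 members and lower for 0 (11.3% and 9.72% of all items; limma, 60 and 0 at an unadjusted p under 0.05). Pam was higher than Cpg for 44 and lower for 0 (13.2% and 9.97%; limma, 53 and 1 unadjusted). Cpg was higher than Grd for 2 members and lower for 0 (2.64% and 2.85%; limma, 8 and 4 unadjusted).

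From the middle to the late window the mean of the 5 ligands fell further for 52 members and rose for 3 (29.8% and 42.9% of all items). This comparison uses no Control array. By ligand it fell for 48 members with Pic (20.6%), 43 with Lps (24.4%), 28 with Grd (19%), 21 with Cpg (19.1%) and 4 with Pam (19.3%). With Pam 5 members rose between these windows, against 25.8% of all items.

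Of the members, 49 were lower in all 10 middle and late windows and 54 in all 5 late windows. Only 4 were higher in any of the 10, and 3 of these are paralogues. Rps27l, a paralogue of Rps27 known as a p53 target, ranged from 2815.2 to 3338.2 on the Control arrays with a median of 3116. In the middle window its lowest, median and highest values were 3691, 3974 and 4163.8 with Lps, 3710.7, 3971 and 4031.6 with Pam, and 2877.5, 2980 and 3145.4 with Pic. The Lps and Pam arrays lay above all Control arrays, and the Pic arrays overlapped them.

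Rps27l rose by 0.34 ± 0.036 with Lps, 0.33 ± 0.036 with Pam, 0.31 ± 0.036 with Cpg and 0.23 ± 0.036 with Grd in the middle window, while Pic gave -0.05 ± 0.036, which was not called. The difference between Lps and Pic was 0.39 ± 0.039 (limma, adjusted p = 1.43e-12). The 2 other probe sets of the gene rose by 0.36 and 0.30 with Lps. Among 10 measured p53 targets 2 were up and 7 down with Lps in that window (26.2% and 47.8% of all items). Sesn1 fell by 2.10 and Trp53inp1 fell by 2.30.

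Rpl7l1, related to Rpl7 and found in large-subunit precursors, moved in opposite directions between ligands. Its Control arrays lay between 258.7 and 316.8 with a median of 280.2. The middle arrays had a lowest, median and highest value of 156.5, 165.2 and 215.4 with Pic, all below Control, and 308.6, 369.1 and 410.5 with Pam. It fell by 0.68 ± 0.050 with Pic (adjusted p = 1.05e-17) and rose by 0.38 ± 0.050 with Pam (adjusted p = 3.87e-09), a difference of -1.06 ± 0.053. With Lps it fell by 0.16 in the middle and rose by 0.28 in the late window, but its other probe set fell by 0.14 in that late window, so the late Lps direction is not settled. With Grd the other probe set was 0.04 in the late window and not called.

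Rpl24, a large-subunit protein that bridges to the small subunit and is no paralogue, had a Control median of 5978 and a highest Control value of 6503.1. Late medians were 7076 with Pam, 6870 with Grd, 6685 with Lps, 6643 with Cpg and 6054 with Pic. The Pam, Grd and Cpg arrays lay above all Control arrays. It rose by 0.24 ± 0.018 with Pam and 0.14 ± 0.018 with Lps, and fell by 0.10 ± 0.018 with Pic in the middle window. Its rise with Lps in the middle window, 0.05, turned to -0.04 when arrays were centred on bright items.

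Rpl39l, a paralogue known from germ cells, was dim, with a Control range of 35.7 to 47.8, and was called higher in 7 of the 10 windows by up to 0.31 (Cpg late). Its late Cpg arrays ran from 43.7 to 54.4 and overlapped Control. Centring on bright items removed its calls with Lps, Pam and Grd in the middle window and with Pam in the late window. Rpl22l1, a paralogue of Rpl22, had a Control median of 906.9, rose by 0.27 ± 0.059 in the early Lps window and fell by 0.46 ± 0.059 in the late Grd window.

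Rpl36al, a paralogue of Rpl36a, fell and set Pic apart. Its Control arrays lay between 2388.3 and 2931.3, and its late medians were 1630 with Pic, 2009 with Lps and 2512 with Pam. It fell by 0.70 ± 0.030 with Pic and 0.38 ± 0.030 with Lps, and was -0.01 ± 0.030 with Pam (adjusted p = 0.888). The Pic minus Pam difference was -0.69 ± 0.032 (adjusted p = 1.24e-25). Its probe set has the suffix s.

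**Figure D4:**
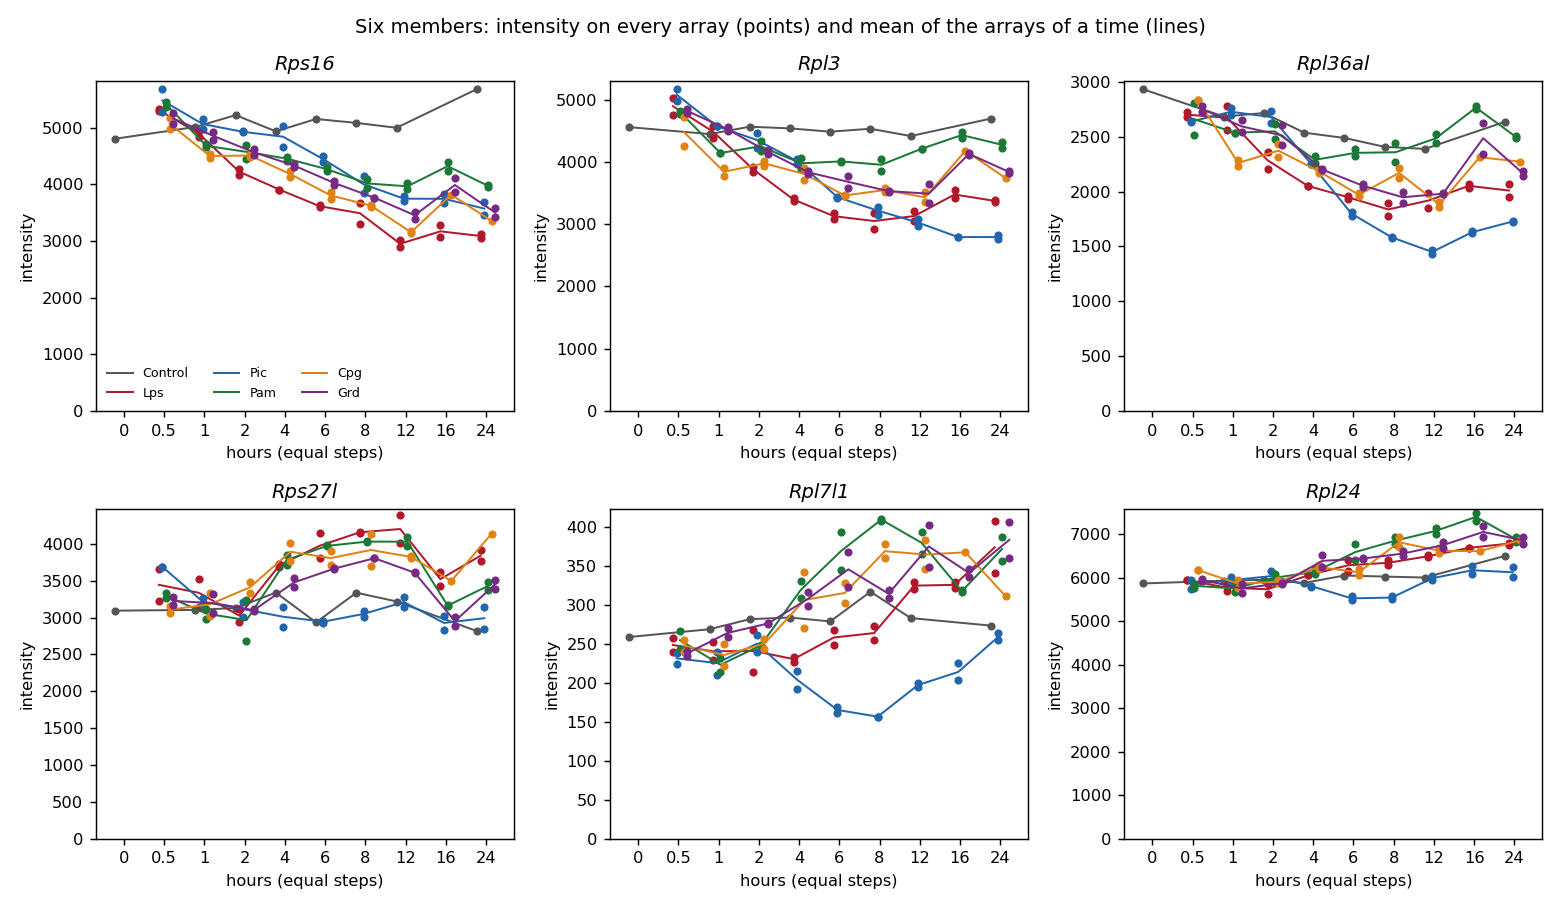
Intensity of Rps16, Rpl3, Rpl36al, Rps27l, Rpl7l1 and Rpl24 on every array (points, shifted sideways by ligand) with the mean of the arrays of each time (lines), against hours in equal steps. Rps16 is lowest with Lps, Rpl3 and Rpl36al with Pic, and Rps27l and Rpl7l1 rise with Pam but not with Pic.

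At 0.5 h alone, 24 members were higher and 6 lower than Control with Lps (16% and 19.5% of all items), and 27 and 9 with Pic (18.6% and 24.2%). Pam gave 6 higher and 11 lower (13.5% and 16.3%), Cpg 3 and 1 (6.05% and 6.86%) and Grd 12 and 13 (15.6% for both). At 2 h 50 members were lower with Lps (35.2%), 36 with Grd (20.6%), 31 with Cpg (33.7%), 28 with Pam (35.6%) and 2 with Pic (14.6%). Rps9 was lower in all 5 early windows, by 0.25 with Lps and 0.23 with Pic, and Rpl34 rose by 0.22 ± 0.038 in the early Pic window with all 6 arrays above Control.

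In Control cells the median slope of the members was 0.025 per unit of log2(hours + 1), against about 0 for all items. Fitted over the 8 arrays, 4 of 69 members rose (5.25% of all items) and 0 fell (7.06%), so the rises were near the share of all items. At an unadjusted p under 0.05 in limma the counts were 24 and 3. The share of all items at that threshold was not counted, so these counts cannot be set against other genes. The 4 were Rpl11, Rpl13a, Rpl23 and Rpl37a, with slopes between 0.032 and 0.058 per unit. The count of rising members was 0 without the array of 1, 2, 4, 8, 12 or 24 h, 2 without that of 0 h and 5 without that of 6 h, and without that of 24 h 1 member was called falling. With a time slope for Control the late lower members numbered 64 with Lps, 63 with Pic, 57 with Pam, 62 with Cpg and 64 with Grd. The share of all items was not counted with that slope.

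Genes that build ribosomes followed another course. Of 54 measured biogenesis factors, 29 were higher and 5 lower with Lps in the early window, and 33 and 2 with Pic. At 4 to 8 h 9 were up and 38 down with Lps, 4 and 39 with Pic, but 31 and 8 with Pam, with medians of -0.33, -0.45 and 0.24. By the late window the Lps counts were 13 and 12, the Pam counts 21 and 7, and the Pic counts 2 and 37. Heatr1, a factor of ribosomal RNA transcription and processing, fell by 1.56 with Lps and fell by 1.53 with Pic in the middle window, and Rrs1, an assembly factor of the large subunit, rose by 1.02 with Lps and 1.76 with Pam. Of 12 measured genes of RNA polymerase I and its factors, 4 were lower with Lps in the middle window, and 3 were higher and 2 lower with Pam. The shares of all items for these windows are those given above.

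Other messages with a known terminal oligopyrimidine start mostly fell with Lps, Pic, Cpg and Grd in the late window. Of 14 measured, 12 were lower and 1 higher with Lps in the late window (median -0.41), against 35.3% and 27.5% of all items. With Pic 11 were lower and 1 higher (median -0.48), against 38.5% and 26.9%. With Cpg 11 were lower and 1 higher (median -0.26), against 31.4% and 22.7%. With Grd 11 were lower and 2 higher (median -0.23), against 32.4% and 25.5%. With Pam 7 were lower and 2 higher (median -0.12), against 31.7% and 23.6%. Eef2, the translocase of elongation, fell by 0.42 with Lps and 0.68 with Pic in the late window and was -0.07 with Pam, which was not called. Eef1g fell by 0.47 and 0.75 and was -0.04 with Pam. Eif4b, an initiation factor, fell by 1.36 with Lps in the middle window. Of 7 elongation factors 6 were lower and 1 higher with Lps, and all 7 lower with Pic, in the late window. With Cpg and with Grd 5 were lower and 1 higher, and with Pam 3 were lower and 1 higher. Of 25 initiation factors 9 were lower and 12 higher with Lps in that window, and the falls were near the 35.3% of all items.

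Mitochondrial ribosomal proteins, which translate the few messages of the organelle, were lowest in the middle window. Of 70 measured, 61 were lower and 4 higher with Lps (median -0.42), against 47.8% and 26.2% of all items. In the late window the counts were 23 and 17 (median -0.02), near the 35.3% and 27.5% of all items. With Pic 47 were lower and 9 higher in the late window (38.5% and 26.9% of all items). Among 14 genes of mTORC1 and its outputs, 10 were lower and 2 higher with Lps in the middle window, including Eif4ebp1, a repressor of cap-dependent translation, which fell by 1.13. Of 9 genes of the Myc network 6 were lower and 2 higher, and Myc itself, dim at 60.75 in Control, fell by 0.79 in that window. Of 7 chaperones of ribosomal proteins 6 were lower with Lps, and 1 was higher and 2 lower with Pam, in the middle window. Of 8 genes of ribosome rescue and recycling 6 were lower and 2 higher with Lps and 3 lower and 4 higher with Pam. In that window 47.8% of all items were lower and 26.2% higher with Lps, and 37.7% and 25.1% with Pam.

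Where members had other probe sets the direction could be checked. Of 123 probe sets above the floor, 37 were not the ones used and had a Control mean of at least 100. In the late window 33 of these 37 were lower with Lps, 29 with Pic, 24 with Pam, 30 with Cpg and 32 with Grd. Higher ones numbered 2, 0, 2, 2 and 0 in that order. Of 17 dimmer ones 7, 7, 3, 6 and 5 were lower and 1, 1, 4, 1 and 1 higher. A dim probe set of Rpl22 fell by 1.31 with Lps in the middle window, where the one used fell by 0.23, and one of Rpl15 with a Control mean of 143.6 fell by 1.05 against 0.20. With plain probe sets alone 25 members could be tested, and 17 were lower with Lps, 18 with Pic, 11 with Pam, 16 with Cpg and 16 with Grd in the late window. Higher ones numbered 2, 1, 5, 3 and 3 in that order. The share of all items was not counted for these checks.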

How the data were processed

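Per the labels' protocols, biotin-labelled total RNA was read on one-colour Affymetrix arrays of the mouse. The authors deposited linear intensities of 18858 probe sets, obtained with RMA per the submitters' processing notes, a method that removes background, equalizes arrays and combines the probes of a set. The sources used here do not give its version, the return to a linear scale or the floor of 20. The share of probe sets at this floor was 33.1% to 34.6% per array, and array medians ranged from 48.75 to 59.5. The number of arrays limits the precision.

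All 96 arrays lay on 1 plate. Times of Lps, Pic, Pam and Grd each had a plate column of their own, and Cpg and Control lay in other columns, so place cannot be told apart from time or ligand.

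Gene symbols came from the platform annotation (15044 with 1 symbol, 257 with several, 3557 with none), of which 15024 were matched to RefSeq by Entrez identifier. A probe set that never exceeded the floor was dropped, and the brightest probe set of each gene was kept, which gave 10543 items. Values were analysed as log2(value + 1), which understates changes of dim genes. limma 3.58.1 under R 4.3.3 fitted 45 ligand and time means and 1 mean for the 8 Control arrays, with 50 residual degrees of freedom. Window contrasts, ligand pairs, F-tests and late minus middle came from this fit, and the Control trend from the Control arrays alone. Tests were two-sided, and p-values were adjusted by Benjamini-Hochberg over all items. Errors after ± are standard errors.

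The members and gene lists were chosen with earlier results of these data known. Named members are the 3 largest called rises and falls of each ligand window, a fixed panel, the brightest and dimmest, and the largest Control trends. From each list up to 4 genes with the largest differences could be named. Rpl7, Rpl15, Rpl23, Rps23 and the probe sets compared were named after their values were seen.

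In simulated data for the late Lps contrast over 10543 items, 68 of 100 changes of 0.3 and 100 of 100 changes of 1 were recovered, with 15 false calls. The changed items were drawn at random, the noise was independent and normal, and all other items were left unchanged. In the data 35.3% of items were lower and 27.5% higher in this contrast, so these rates may not hold for the members. Alternatives were another scaling, pseudocount, filter, choice of probe set, Control slope, replicate block and leaving out each array. Centring on bright items and testing every probe set were added after seeing the data.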

Additional observations from a re-analysis of the deposited data

Results flagged for a closer look

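Among the 8 Control arrays 34 sets of values were tested for an array far from the others, and 10 had one. Chance gives about 1 in 20 for a single set. The 34 sets share the same 8 arrays and are not independent, so the count of 10 cannot be set against that rate. The array at 24 h was the high one for the mean log2 difference of the members (0.0918), Rpl24 (6503), Rpl27 (3611), Rpl28 (5830), Rpl36 (3767), Rpl6 (4724), Rps15 (3987) and Rps7 (6734). The array at 8 h was the high one for Rpl22 (2928) and Rpl7l1 (316.8). Each time of Control had 1 array, so array and time cannot be told apart. Without the array at 24 h the late lower members numbered 63 with Lps, 62 with Pic, 56 with Pam, 61 with Cpg and 63 with Grd.

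For 6 pairs a member was called in opposite directions with 2 ligands and the difference itself was called (limma). In the early window Rpl7 differed by 0.1485 and Rps15 by 0.2476 between Pic and Grd, and Rps23 by 0.1419 between Pic and Cpg, each higher with Pic. In the middle window Pic minus Pam was -1.0598 for Rpl7l1 and -0.2130 for Rpl24. In the late window Pic minus Grd was -0.7176 for Rpl7l1.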

How the results depend on the processing

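With any 1 array left out, lower members numbered 54 to 65 in the middle and 53 to 64 in the late windows over the 5 ligands, and log2(value + 16) changed no call of a named member. The replicate block took rises with Pic in the middle window from 0 to 1, moved each other count by at most 1 and changed no call of a named member. Between ligands at the same time, differences between replicate arrays correlated with a median of -0.0037 over 82 pairs of groups (range -0.27 to 0.28). Whether replicate numbers pair arrays of different times within a ligand was not tested. Leaving out 1 array gave 3 to 9 early rises with Lps (3 without replicate 1 of 1 h), 7 to 12 early falls with Pic (7 without Control at 24 h), 0 to 1 rises with Pic in the middle and late windows, 1 to 3 early rises with Cpg (3 without Control at 24 h), 0 to 1 with Grd, and 0 to 5 rising and 0 to 1 falling Control trends.

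With each array centred on its median, early rises and falls numbered 23 and 3 with Lps, 34 and 2 with Pic, 12 and 7 with Pam, and 8 and 6 with Cpg. Middle ones numbered 9 and 27 with Lps, 4 and 26 with Pic, 33 falls with Pam, 7 and 28 with Cpg and 43 falls with Grd. Late rises with Pic numbered 5 (40.9% of all items on that scale), further rises from the middle to the late window 1, and ligand differences in the middle window 39. Rpl22l1 turned to 0.1378 with Cpg and 0.1400 with Lps, Rpl7l1 to 0.0298 with Lps and Rplp0 to 0.0053 with Cpg, all in the middle window.

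Centring on bright items gave 4 early rises and 39 falls with Lps (14.9% and 44.3% of all items on that scale). It gave 0 and 46 with Cpg (11.9% and 45%) and 0 and 45 with Grd (12% and 33%). Middle rises were 1 with Lps (21.6%) and 2 with Grd (19%). Rpl24 turned to -0.0392 in the middle Lps window. Rps27l was no longer called higher with Grd in the late window (0.0161). With Pic it was called lower in the middle (-0.0996) and late (-0.0870) windows. With a Control slope early rises and falls were 3 and 11 with Lps, 3 and 11 with Cpg and 0 and 6 with Grd, with 12 falls with Pam and 4 with Pic, and rises with Pic were 1 in the middle and 1 in the late window. Without the filter Control trends rising numbered 0 and early Grd rises 0. The share of all items was not counted with a Control slope or without the filter.

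Plain probe sets cover 25 members, so their counts are smaller by construction, and the share of all items was not counted for them. Early rises and falls were 4 and 9 with Lps, 7 and 5 with Pic, 3 and 7 with Grd, and falls 12 with Pam and 11 with Cpg. Middle falls were 18 with Lps, 15 with Pic, 12 with Pam, 14 with Cpg and 15 with Grd, with 1 rise with Pic. Late falls were 17, 18, 11, 16 and 16 in that order, with 1 rise with Pic. Further falls from middle to late numbered 16, ligand differences 14 early, 19 middle and 20 late, and Control trends 0 rising and 1 falling. Rpl11 turned to 0.0137 with Pic, 0.0515 with Pam and 0.0070 with Grd in the middle and 0.0251 with Pam in the late window, on a probe set near the floor. Rps6 turned to 0.0985 with Pam and 0.0386 with Grd in the middle and 0.0891 with Pam in the late window, and Rpl39 to -0.1297 with Cpg in the early window. The cause of these changes was not tested.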
